A study of Mus musculus with 36 samples.

Results

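The genes described here carry mouse symbols made of Zfp and a number, with or without a final letter, the symbol prefix for zinc finger protein. They were chosen by their summed count: of 364 Zfp genes in the count table, 112 reached a total of 1000 or more over the 36 libraries, out of 16812 genes in all. Zfp36, which belongs to another protein family, was left out by the rule. At the edge of the threshold, Zfp950 (total 1020), Zfp410 (1010) and Zfp787 (1008) lay just inside, and Zfp367 (990), Zfp944 (988) and Zfp444 (984) just outside. The total was the only measured value in the choice; the comparisons between weeks and treatments below were not part of it. All 112 members passed the filter on low counts and were tested. Membership rests on the name, so the set is of mixed function.

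A classical C2H2 zinc finger is a short fold held by a zinc ion between a pair of cysteines and a pair of histidines, and arrays of such fingers read DNA. Many Zfp proteins carry in addition a KRAB box, which recruits the corepressor Trim28 and, through it, Setdb1 and HP1 proteins, and so silences retroelements and nearby genes. Others act on globin genes, on imprinted loci or on RNA. In red cell precursors, ZFP410 is known for keeping the Chd4 gene active, and Chd4 is part of the NuRD complex that holds fetal globin genes silent.

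The libraries came from peripheral blood of Townes mice, a sickle cell model whose own globin genes are replaced by human ones, and the cell type label reads erythrocytes. Mice received cholesterol-modified MIR29B or a scrambled control at 2 or 3 mg/kg by mini-osmotic pump, and blood RNA, depleted of globin mRNA, was sequenced for weeks 0, 2 and 4. This gave 12 groups of 3 libraries: each arm (MIR29B or scrambled) at each dose and each week. All groups share the strain and the pump, and no untreated or wild-type group was used here. The genotype label of the treated groups reads MIR29B overexpression, although the agent was given to the mice. The labels do not state whether the week 0 blood preceded dosing, or whether libraries of different weeks came from the same animals, so p-values measure the spread between these libraries. The study asked how intermittent MIR29B dosing changes gene expression and fetal hemoglobin.

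Library totals ran from 10.7 M to 45.65 M counts over all rows, and from 6.82 M to 31.72 M with 1 row per gene. The 112 members together held 4422 to 20512 counts, and took 0.0435% to 0.106% of the totals with 1 row per gene. Every value in the table was even (0 odd values); what a pair of counts stands for is not given in the sources used here, so no counting interval is given. Ribosomal RNA was taken as 15 non-coding rows. Of these, 2 were named as ribosomal RNA, and the others had no symbol and were not identified. This share, used below, ran from 1.39% to 15.05% of the counts and was over 5% in 3 libraries. They were replicates 2 and 3 of week 2 MIR29B at 2 mg/kg, and replicate 1 of week 0 scrambled at 2 mg/kg. In that order, the 2 named rows alone held 5.07%, 3.13% and 1.64% of their counts. Erythroid markers dominated by their summed level, mostly through Alas2. Means of the 12 erythroid markers ran from 103000 (Alas2) down to 6.83 (Klf1) on the counts-per-million scale (CPM), not adjusted for transcript length. Markers of white cells and platelets were present too, with Cd79a at 60.4, S100a8 at 241 and Pf4 at 87.4. Of the marker lists, Elane alone stayed under 1 CPM in every library. In such bulk RNA, fewer cells of a type and less RNA per cell cannot be told apart.

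Levels in CPM refer to the tested genes after TMM scaling, and levels of different genes are compared only per kb of transcript. Zfp773, a KRAB member on chr7:7127073-7136755 (GRCm38, minus strand), stood highest at 33.4 CPM per kb on average over the 36 libraries. Zfp180 followed at 12.1, Zfp825 at 9.13, Zfp207 at 8.27 and Zfp874a at 8.26 CPM per kb. Zfp207 encodes BuGZ, a spindle protein with 2 fingers found by pattern. The ranges over libraries of all 5 overlapped (7.89 to 163, 2.81 to 19.7, 2.2 to 23.3, 4.84 to 17.6 and 1.68 to 32.1 CPM per kb), so their order is one of means only. At the low end stood Zfp518a (0.268), Zfp516 (0.241), Zfp609 (0.229), Zfp407 (0.207) and Zfp26 (0.176 CPM per kb). Of the 112 members, 87 had counts in every library and 25 were at 0 in at least 1, with Zfp971 at 0 in 5.

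**Figure D1:**
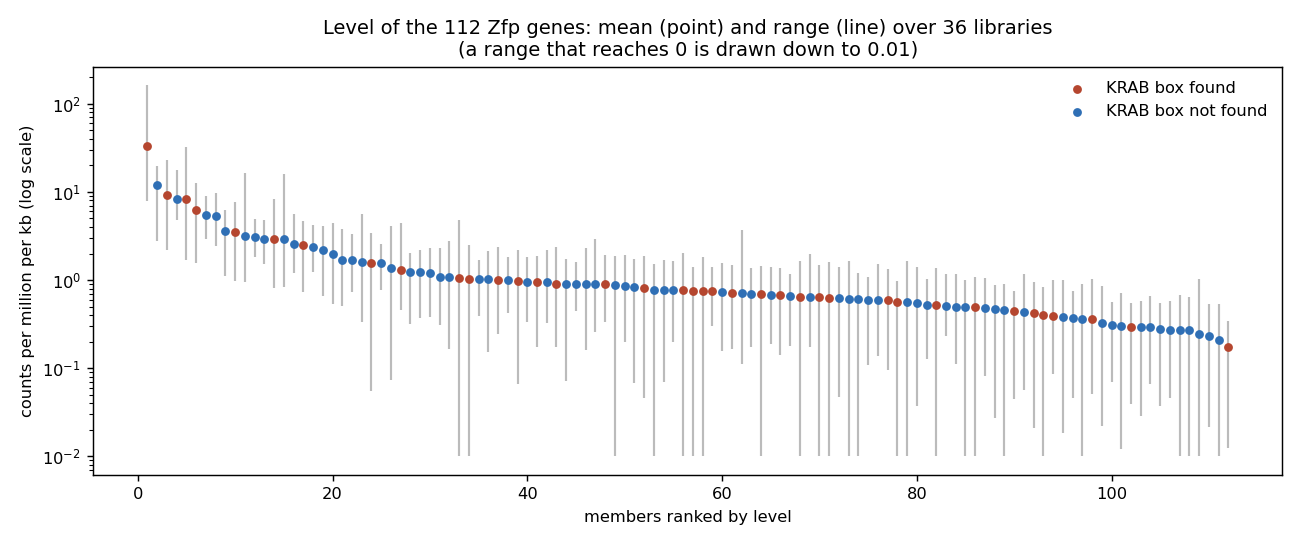
Mean level of each of the 112 Zfp genes in CPM per kb of transcript (point, log axis) and its range over 36 libraries (grey line), ranked from highest to lowest and coloured by the KRAB box. Zfp773 has the highest mean, 33.4, with a range that overlaps those below it, and ranges that reach 0 are drawn down to 0.01.

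Zfp773 was also among the most variable members. Its level ran from 35.3 to 301 CPM at week 0 (median 70.5, n = 12), from 23.9 to 493 at week 2 (median 99.7) and from 43.1 to 230 at week 4 (median 67.1). Single libraries held these extremes: scrambled 3 mg/kg replicate 1 at week 2 held 493 CPM, while the other 2 replicates of that group held 43 and 45.9. No week comparison called Zfp773 (week 2 against week 0, log2 fold change 0.66, SE 0.36). Zfp874a varied in the same manner, from 5.44 to 104 CPM at week 2 around a median of 15.8, with a coefficient of variation of 0.867 over all libraries. Zfp91, a ubiquitin ligase known as a target of cereblon-binding drugs, was steadier, with medians of 28.2, 27.6 and 31.8 CPM at weeks 0, 2 and 4 and a coefficient of variation of 0.262.

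Between week 0 and week 2, with both arms and doses averaged, 29 of the 112 members were called by edgeR's quasi-likelihood test at a Benjamini-Hochberg adjusted p under 0.05, which is 25.9% of them. Of all 11953 tested genes, 16.0% were called in this comparison, 8.72% higher and 7.24% lower. Among members, 25 were lower at week 2 and 4 were higher. The median log2 fold change of the members was -0.32 against -0.03 for all genes, and 75 members were below 0. No member separated the weeks fully: in 0 of 112 did all 12 libraries of week 2 lie below or above all 12 of week 0, and this was so for 1 lower and 11 higher genes of all those tested. The members and this comparison were chosen with earlier results of these data known, so the difference from the background is a description.

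The largest falls were in Zfp518a, Zfp322a, Zfp445, Zfp758, Zfp942 and Zfp943. Zfp758, a KRAB protein with 12 fingers on chr17:22361453-22377281, held 2.95 to 10.1 CPM at week 0 (median 6.31), 0.164 to 6.81 at week 2 (median 1.7) and 2.54 to 9.34 at week 4 (median 5.73). Of the week 2 libraries, scrambled 2 mg/kg replicates 1 and 2 lay within the range of week 0, at 3.76 and 6.81 CPM, and the others lay below it. The log2 fold change at week 2 was -1.73 (SE 0.29, adjusted p = 0.000153). Zfp445, a KRAB protein that helps keep imprinted loci methylated, held 2.88 to 9.27 CPM at week 0 (median 7.04) and 0 to 4.95 at week 2 (median 1.91). Its log2 fold change was -1.74 (SE 0.35, adjusted p = 0.00097). The week 2 and week 0 libraries overlapped between 2.88 and 4.95 CPM.

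Zfp518a and Zfp322a have no KRAB box by the pattern used. Zfp518a went from 1.22 to 4.39 CPM at week 0 (median 2.92) to 0 to 3.7 at week 2 (median 0.711), a log2 fold change of -1.87 (SE 0.42, adjusted p = 0.00266). Zfp322a, on chr13:23353103-23369208, held 1.7 to 4.33 CPM at week 0 (median 2.62) and 0 to 2.39 at week 2 (median 0.711). Its change was -1.77 (SE 0.36, adjusted p = 0.00095). In both genes a single week 2 library stood at the top of its week, scrambled 2 mg/kg replicate 1, while the medians of week 2 lay below the lowest library of week 0. Zfp942 (-1.71, SE 0.41) and Zfp943 (-1.53, SE 0.28) are KRAB neighbours of Zfp758 on chromosome 17, and Zfp942 was at 0 in 3 libraries, all of week 2 scrambled. Without scrambled 3 mg/kg replicate 2 of week 2 (1.26 CPM), the value of Zfp942 moved to -3.28.

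Zfp703 rose most. It encodes a corepressor of the NET family, lies on chr8:26977325-26981461 and has no classical finger by the pattern. Its level was 1.05 to 5.39 CPM at week 0 (median 2.82), 2.56 to 17.8 at week 2 (median 7.43) and 2.17 to 8.74 at week 4 (median 4.22). The log2 fold change at week 2 was 1.47 (SE 0.22, adjusted p = 3.96e-05), the smallest adjusted p of any member between weeks. All 6 MIR29B libraries of week 2 lay between 6.16 and 8.78 CPM, above the highest library of week 0. Of its transcript's stretches of 75 bases, 10.2% also occur in Gm45371, so reads from the 2 genes can be confused. Zfp628 (0.98, SE 0.35), Zfp574 (0.96, SE 0.29) and Zfp771 (0.81, SE 0.28) were the others called higher. These 3 calls are weak: with 1 library left out, Zfp628 lost its call in 29 of 36 fits, Zfp771 in 18 and Zfp574 in 2, without scrambled 2 mg/kg replicate 3 or MIR29B 3 mg/kg replicate 3 of week 2. Zfp574 ran from 0.554 to 2.72 CPM at week 0 (median 1.28) and from 0.851 to 6.22 at week 2 (median 2.45), with wide overlap.

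**Figure D2:**
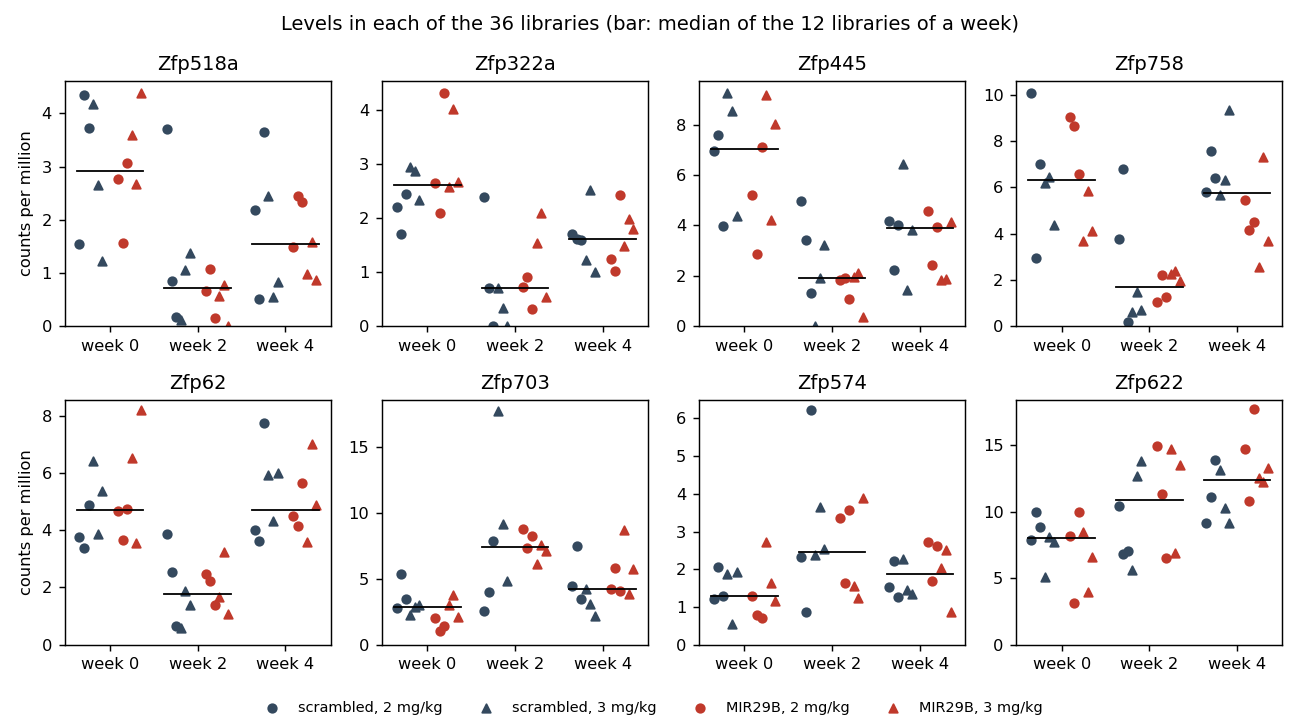
Levels in CPM of 8 members in each of the 36 libraries, by week, arm (colour) and dose (marker), with a bar at the median of the 12 libraries of a week. Zfp518a, Zfp322a, Zfp445, Zfp758 and Zfp62 are low in most week 2 libraries, Zfp703 and Zfp574 are high there, and Zfp622 is highest at week 4.

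Most of the 25 lower members had transcripts of low GC content. Of them, 12 had under 40% GC, 11 had 40% to 45%, Zfp318 had 45% and Zfp217 had 51.7%. Among the 20 members under 40% GC, all 20 were below 0 and 12 were called lower, with a median log2 fold change of -0.99. Of all tested genes under 40% GC, 84.9% were below 0 and 32.2% were called lower, and at 40% to 45% GC 76.5% and 18.2%. Over the 5 bands (under 40%, 40% to 45%, 45% to 50%, 50% to 55%, and 55% or more) the members' medians were -0.99, -0.63, -0.21, 0.07 and 0.26. All tested genes of the same bands had medians of -0.68, -0.41, -0.14, 0.11 and 0.3. So the members followed the gradient that the whole transcriptome showed, with a lower median in each of the 5 bands; that gap was not tested. Across the 112 members Spearman's rho between GC content and the week 2 change was 0.74, against 0.43 over 11770 genes; these are correlations across genes, which share the same libraries. The 4 members called higher all had 55% GC or more, with Zfp771 at 68.7%.

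KRAB members made up much of the low-GC end. The 38 members with a KRAB box had a median GC content of 40.5%, the 74 without one 50.1%, and all tested genes 50.2%. Of the 38, 16 were called lower at week 2 and 0 higher, with a median of -0.77. Of the 74, 9 were called lower and 4 higher, with a median of -0.07. Within GC under 45%, 31 KRAB members had a median of -0.91 with 16 called lower, and 21 members without the box had -0.65 with 7 called lower. Of all tested genes under 45% GC, 21% were called lower, and of those at 45% or more 3.13%. At 45% GC or more, 7 KRAB members had a median of -0.21 with 0 called, and 53 others had 0.06. The count of fingers followed the same line: members with 10 or more fingers (45 genes, median GC 41.7%) had a median of -0.66, and those with 0 to 3 (24 genes, median GC 49.9%) had 0.07. KRAB status came from a pattern in translated transcripts, so a divergent box can be missed.

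**Figure D3:**
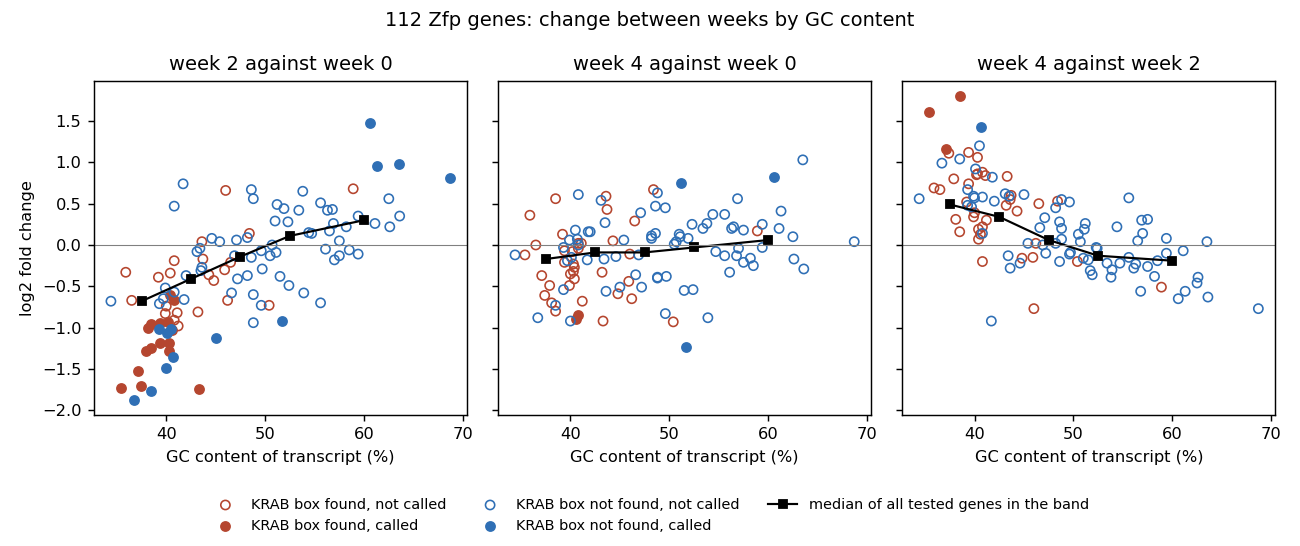
Log2 fold change of each of the 112 members against the GC content of its transcript in percent, for the 3 week comparisons; red marks members with a KRAB box and blue those without, filled points are called, and black squares are medians of all tested genes per GC band. The slope up at week 2 against week 0 (rho 0.74) turns into a slope down at week 4 against week 2 (rho -0.72).

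The gradient could be seen library by library with the members left out. A GC index was taken as the median log2 deviation of genes under 40% GC minus that of genes with 55% or more, each gene set against its own mean. It lay between 0.06 and 0.54 in the 12 libraries of week 0, between -0.96 and 0.54 at week 2 and between -0.38 and 0.4 at week 4. It was below 0 in 10 of 12 week 2 libraries, in 0 at week 0 and in 1 at week 4. The week 2 libraries above 0 were scrambled 2 mg/kg replicates 1 (0.45) and 2 (0.54), the same 2 in which Zfp758 lay within its week 0 range. The median deviation of the 38 KRAB members was below 0 in 10 of 12 libraries at week 2, in 0 at week 0 and in 3 at week 4. The lowest value was -1.03, in scrambled 3 mg/kg replicate 1 at week 2, where the index was also lowest at -0.96.

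**Figure D4:**
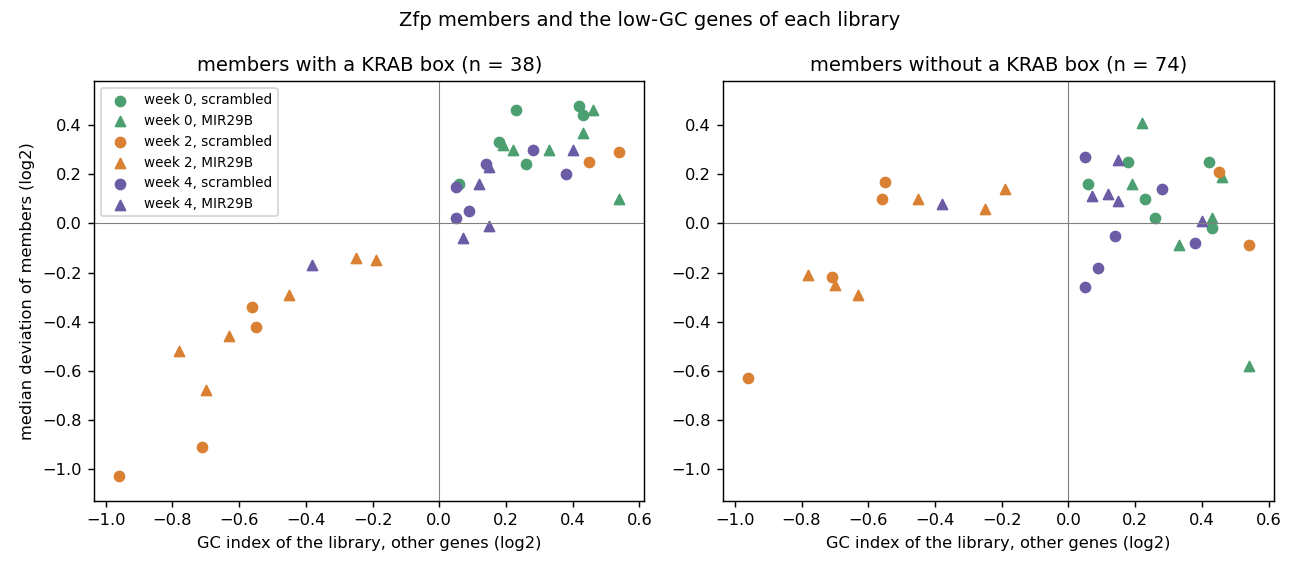
GC index of each library (x axis, log2; low-GC minus high-GC genes, members excluded) against the median log2 deviation of the 38 KRAB members (left) or the 74 other members (right), coloured by week with arm as marker. The week 2 libraries with an index below 0 hold the lowest KRAB values, down to -1.03.

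With the GC gradient of each library taken out by offsets, an alternative added after seeing the data, 14 members were called between week 0 and week 2, 10 lower and 4 higher, where 11.0% of all genes were called. Of these 14, 11 were among the 29. The lower ones were Zfp141, Zfp217, Zfp318, Zfp322a, Zfp445, Zfp518a, Zfp62, Zfp758, Zfp942 and Zfp943. Zfp445 stood at -1.41 (edgeR adjusted p = 0.00311), Zfp758 at -0.99 (0.00474) and Zfp62 at -0.88 (0.00165). Zfp703 stayed higher at 1.18 (edgeR adjusted p = 0.000222), whereas Zfp628, Zfp574 and Zfp771 lost their calls at 0.6, 0.63 and 0.23. Zfp24, Zfp260 and Zfp830 were called higher only with the offsets in this pair of fits. Zfp260 holds a single high library at week 2, scrambled 2 mg/kg replicate 3, described below. The median of the members became -0.06 and that of the KRAB members -0.27, against -0.01 for the others. Among members, rho between GC content and the change was still 0.31 with the offsets. The gap between KRAB members and the others is therefore not separated from GC content. What produced the gradient was not tested.

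Without the 3 libraries over 5% ribosomal RNA, 15 members were called at week 2 against week 0, 1 higher and 14 lower, all among the 29, where 7.03% of all genes were called. Its filter on low counts, set again for the smaller groups, let 13032 genes through; on the same 11953 genes, an alternative added after seeing the data, 15 members and 8.48% of genes were called. In that fit MIR29B at 2 mg/kg in week 2 kept a lone library, whose spread is taken from the other groups. Some white cell markers moved between these weeks as well, where 8.72% of all genes were called higher and 7.24% lower. Of 11 tested neutrophil markers 8 were called higher at week 2 and 0 lower, and their summed level ran from 175 to 1210 CPM at week 0 (median 453) and from 769 to 2920 at week 2 (median 1040). Of 10 natural killer cell markers 5 were called lower, with sums of 22 to 115 CPM (median 53.1) and 7.17 to 87.7 (median 27.6). Of 11 B cell markers 2 were called lower (median -0.51, 10 below 0), with sums of 112 to 280 CPM (median 165) and 32.9 to 381 (median 122), and of 12 T cell markers 1 was (median -0.18, 11 below 0). Of 12 erythroid markers 2 were called higher and 3 lower. Of 10 monocyte and 10 platelet markers 0 were called, with medians of 0.09 and 0.15. The part of these cells in the members' changes was not tested.

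Genes of the corepressor machinery that KRAB proteins use were followed as a fixed list of 38, of which 37 were tested. At week 2 against week 0, 2 were called higher and 6 lower, and the median was -0.07 beside -0.03 for all genes. Of all genes, 8.72% were called higher and 7.24% lower. The lower ones were Tasor (-1.37, SE 0.24) and Mphosph8 (-1.45, SE 0.47), both of the HUSH complex, Cbx5 (-1.26, SE 0.31) and Cbx3 (-0.81, SE 0.18), which encode HP1 proteins, Morc3 (-0.77) and the deacetylase Hdac2 (-0.74). These 6 had a GC content of 38.9% to 44.4%. Uhrf1 (1.1, SE 0.34) and Gatad2a (0.48, SE 0.16) were higher, at 53.3% and 56.8% GC. Trim28 itself, with 59.6% GC, gave 0.17 (SE 0.17, edgeR adjusted p = 0.508), and Setdb1 gave -0.44 (SE 0.33, adjusted p = 0.376).

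Chromosome 7 holds 19 members, and chromosomes 17 and 2 hold 9 each. On chromosome 17 all 9 were below 0 at week 2 (median -1.19, 6 called lower, median GC 38.5%). Zfp51 (chr17:21450374-21465587), Zfp53, Zfp942, Zfp943 and Zfp758 are KRAB genes among them, the last ending at base 22377281. On chromosome 13 all 7 members were below 0 as well, with 2 called (median -0.49, median GC 39.7%). On chromosome 7 the median was 0.22 with 3 called higher and 1 lower, at a median GC content of 53.9%. Of all tested genes under 40% GC, on any chromosome, 84.9% were below 0 and 32.2% were called lower. At 50% to 55% GC, 42.1% were below 0, 2.14% were called lower and 9.89% higher. The share of all genes per chromosome was not taken. Reads can be shared with other genes, which need not be copies. Of the 112 members, 51 had no stretch of 75 bases in common with another gene on either strand. In 21 over 10% was shared, and in 1 over 50% (Zfp593, 58.8% with E130218I03Rik). Of those called at week 2, 8 shared over 10%, among them Zfp932 (39.6%) and Zfp970 (33.2%), whose values are therefore uncertain. Zfp758, Zfp943 and Zfp51 shared 1.48%, 0.787% and 0.92%.

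By week 4, 5 members differed from week 0, which is 4.46% of them, where 6.16% of all genes were called (4.23% higher, 1.92% lower). The share of members was no larger than that of all genes, and the median was -0.07 beside -0.04. Zfp217, a corepressor amplified in tumours, ran from 4.98 to 12.4 CPM at week 0 (median 8.15), 1.97 to 7.34 at week 2 (median 4.12) and 1.83 to 6.95 at week 4 (median 3.09). It was lower at both times, with log2 fold changes of -0.92 (SE 0.23) and -1.24 (SE 0.23, adjusted p = 0.000642), and its GC content of 51.7% lies near the middle of all genes. With GC offsets the week 4 value was -1.23 (edgeR adjusted p = 0.000193). Zfp622, which acts in maturation of the large ribosomal subunit, ran from 3.14 to 10 CPM at week 0 (median 7.97) and from 9.14 to 17.7 at week 4 (median 12.4). Its log2 fold change was 0.75 (SE 0.2, adjusted p = 0.019), and the 2 weeks overlapped only between 9.14 and 10 CPM.

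Zfp703 remained higher at week 4 (0.82, SE 0.22, adjusted p = 0.0208). Zfp970 (-0.85, SE 0.21) and Zfp937 (-0.9, SE 0.25) were lower; both are KRAB genes that share sequence with others (33.2% and 18.6% of their stretches of 75 bases). Zfp937 lost its call in 6 of 36 fits without 1 library and Zfp703 in 3 of them, those without week 0 MIR29B 3 mg/kg replicate 3, week 4 scrambled 2 mg/kg replicate 2 or week 4 MIR29B 3 mg/kg replicate 1. With GC offsets Zfp217, Zfp622, Zfp703 and Zfp970 were called, 4 members, where 6.60% of all genes were. Without scrambled 3 mg/kg replicate 1 of week 2 the count of 5 became 8. The share of all genes called in that fit is not given here. Without the libraries rich in ribosomal RNA 3 were called, where 4.09% of all genes were, and 3 again on the same 11953 genes (4.69%).

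From week 2 to week 4, 4 members were called, all higher, or 3.57%; of all genes 1.05% were called, 0.678% higher and 0.368% lower. These were Zfp51 (1.8, SE 0.36, adjusted p = 0.0134), Zfp758 (1.61, SE 0.29, adjusted p = 0.00537), Zfp62 (1.43, SE 0.24, adjusted p = 0.00448) and Zfp943 (1.16, SE 0.28, adjusted p = 0.0422), which lost its call in 19 of 36 fits without 1 library. Zfp62, with 26 fingers and no KRAB box by the pattern, ran from 3.4 to 8.21 CPM at week 0 (median 4.71), from 0.594 to 3.87 at week 2 (median 1.77) and from 3.59 to 7.76 at week 4 (median 4.7). Only 1 week 2 library, scrambled 2 mg/kg replicate 1 at 3.87 CPM, reached the range of the other weeks. Zfp51 held medians of 1.88, 0.874 and 3.01 CPM at weeks 0, 2 and 4. These 4 genes were also lower at week 2 than at week 0; both comparisons use the same week 2 libraries, so they are not independent. Natural killer cell markers moved here too, with 2 of 10 called higher, 0 below 0 and a median of 1.16; their summed level was 7.17 to 87.7 CPM at week 2 and 30.5 to 105 at week 4. In each of the other marker lists 0 were called. Medians were -0.47 for neutrophil and for platelet markers, 0.24 for monocyte, -0.02 for B cell, -0.16 for T cell and -0.06 for erythroid markers. The part of these cells in the members' values was not tested.

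The members' median from week 2 to week 4 was 0.2 beside -0.01 for all genes, and rho with GC content was -0.72. With GC offsets rho was still -0.27, and Zfp62 alone was called (1.04, edgeR adjusted p = 0.026), where 0.0669% of all genes were. Without the 3 libraries rich in ribosomal RNA 0 members and 0% of genes were called, also on the same genes. Leaving out 1 library moved the count of 4 by over 1.5 times in 6 of 36 fits, all upward. It became 16 without scrambled 2 mg/kg replicate 1 of week 2. The others of these fits gave 7 to 11. Of week 2 they left out scrambled 2 mg/kg replicate 2, scrambled 3 mg/kg replicate 2 or 3, or MIR29B 3 mg/kg replicate 2. Of week 4 the library was MIR29B 3 mg/kg replicate 1. Shares of all genes called in these fits are not given here.

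Members with a documented cellular role were followed whether called or not; of 22 such genes 18 were members. At week 2, 4 of the 18 were called lower and 0 higher, with a median of -0.12. Of all genes, 7.24% were called lower and 8.72% higher. The 4 were Zfp445 and Zfp217 (above), Zfp318 (-1.12, SE 0.33) and Zfp638 (-1.06, SE 0.38). B cells need Zfp318 to make IgD (B cell markers are given above). Zfp638 is an RNA-binding protein that silences unintegrated retroviral DNA with HUSH. Zfp318 ran from 3.15 to 13.1 CPM at week 0 and from 0.238 to 8.31 at week 2. At week 4, Zfp622 was higher and Zfp217 lower, where 4.23% of all genes were called higher and 1.92% lower. The other 13 gave no call between weeks. Among them Zfp148, a factor that binds GC-rich promoters, gave -0.52 (SE 0.23) at week 2, Zfp281, known from pluripotent cells, 0.54 (SE 0.26) at week 4, and Zfp644, a partner of the methyltransferases G9a and GLP, -0.66 (SE 0.32) at week 2. Zfp598, which senses collided ribosomes, gave -0.11 (SE 0.23), Zfp335, needed for T cell maturation, 0.35 (SE 0.24), and the RNA-binding Zfp106 0.06 (SE 0.27), all at week 2. Zfp207, Zfp384, Zfp592, Zfp652, Zfp687 and Zfp91 lay between -0.15 and 0.44 there.

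Between arms no member was called. MIR29B against scrambled gave 0 members and 0% of all genes at week 0, week 2 and week 4 by edgeR's quasi-likelihood test, and DESeq2 and limma voom also called 0 members at each week. Before adjustment, 4, 5 and 1 members had p under 0.05, or 3.57%, 4.46% and 0.893%, beside 7.13%, 9.83% and 2.64% of all genes. The median SE of a member's log2 difference was 0.41, 0.42 and 0.41. Differences larger than this also missed the threshold, as Zfp410 and Zfp526 show below, where each is given with its own SE. The members' medians were -0.02, -0.1 and 0.07 beside -0.05, -0.09 and 0.03 for all genes. At week 2 the doses gave different pictures, each from 3 libraries an arm and with 0 members called: the 38 KRAB members had a median of -0.58 with the lower dose (2 mg/kg) and 0.05 with the higher (3 mg/kg). Members under 40% GC had -1.01 (18 of 20 below 0) and 0.31 (7 of 20), beside -0.66 and 0.15 for all genes of that band, and rho with GC content was 0.66 and -0.39. The scrambled libraries at 2 mg/kg include both week 2 libraries with a GC index above 0.

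Zfp410, the regulator of Chd4, had the smallest p at week 2. Its 6 MIR29B libraries held 0.354 to 1.4 CPM (median 0.752) and the 6 scrambled ones 0.996 to 3.93 (median 1.58), so the arms overlapped. The log2 difference was -1.17 (SE 0.39, edgeR adjusted p = 0.301), and it is not a call. At week 0 the medians were 2.21 with MIR29B and 2.01 with scrambled, and at week 4 they were 0.881 and 1.03. Within the MIR29B arm Zfp410 was lower at week 2 than at week 0 (-1.44, SE 0.39, edgeR adjusted p = 0.0258), while the scrambled arm gave -0.02 (SE 0.37). The difference between the arms in that change was -1.42 (SE 0.54, edgeR adjusted p = 0.859). Chd4 differed by 0.42 (SE 0.33) between arms at week 2. With a total of 1010 counts, Zfp410 rests on few reads per library.

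Zfp526 had the largest positive difference at week 2, 1.88 (SE 0.67, edgeR adjusted p = 0.346), with 0.779 to 5.54 CPM in the MIR29B libraries and 0 to 1.84 in the scrambled ones. At week 0 the order was the opposite, with medians of 1.24 and 2.38 CPM. The difference in change from week 0 to week 2 was 2.8 (SE 0.92, edgeR adjusted p = 0.838); with no filter on low counts it was called (edgeR adjusted p = 0.0138), as was the week 2 difference itself (edgeR adjusted p = 0.0224). Zfp260 gave -1.77 (SE 0.6, edgeR adjusted p = 0.838) for the difference in change, and 1 library, scrambled 2 mg/kg replicate 3 of week 2, held 64.7 CPM while the others of week 2 held 4.17 to 20.2. Zfp318 differed by 1.04 at week 2 (SE 0.47, edgeR adjusted p = 0.454), which is no call. The members with the smallest p at week 0 were Zfp710 (-0.96, SE 0.42), Zfp260 (0.92, SE 0.43) and Zfp87 (0.79, SE 0.38), and at week 4 Zfp575 (-0.95, SE 0.47), Zfp362 (0.96, SE 0.48) and Zfp346 (-0.6, SE 0.36); none passed the adjustment.

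**Figure D5:**
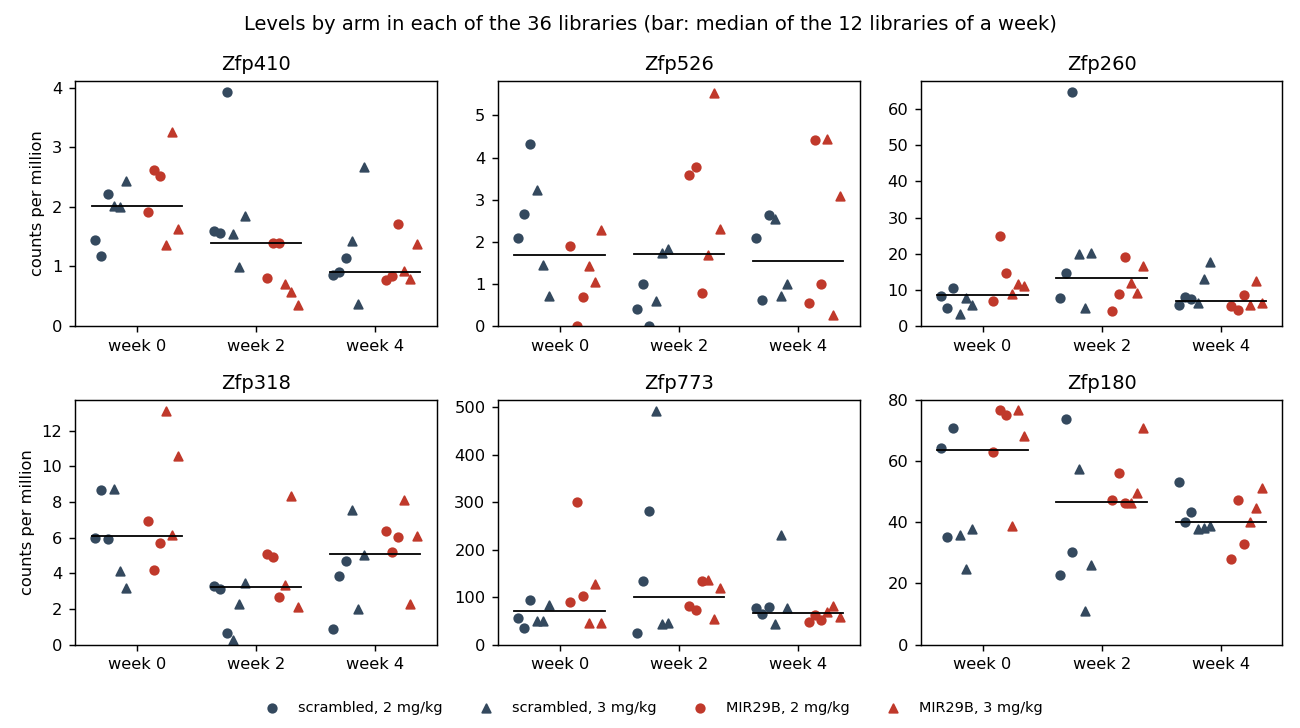
Levels in CPM of 6 members in each of the 36 libraries, by week, arm (colour) and dose (marker), with a bar at the median of the 12 libraries of a week. The arms overlap for each gene and week, and Zfp260 at week 2 and Zfp773 hold single high libraries (64.7 and 493).

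Each arm was also compared with its own week 0. In the MIR29B arm 12 members were called against week 0, 1 higher and 11 lower, where 5.44% of all genes were; in the scrambled arm 6 were called, 2 higher and 4 lower, where 3.21% of all genes were. Of these, 5 were called in both arms, 41.7% of the first list and 83.3% of the second: Zfp703 higher, and Zfp322a, Zfp758, Zfp62 and Zfp141 lower. Zfp62 fell by 1.34 (SE 0.34) with MIR29B and by 1.37 (SE 0.35) with scrambled, on the log2 scale. The median over members was -0.32 with MIR29B and -0.28 with scrambled, and 62 members were below 0 in both arms. Zfp260, called in the scrambled arm (1.63, SE 0.43), has the library at 64.7 CPM in that arm; without it the difference in change between the arms was -1.09 in place of -1.77. At week 4 against week 0, 3 members were called with MIR29B (Zfp703, Zfp622 and Zfp970), where 3.09% of all genes were, and 1 with scrambled (Zfp217), where 0.460% were. From week 2 to week 4 neither arm gave a call, in 0 members and 0% of genes.

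The difference between arms in the change from week 0 was called for 0 members and 0% of genes at week 2 and again at week 4, by edgeR, with 6 and 7 members at an unadjusted p under 0.05. For week 4 Zfp703 (1.03, SE 0.44), Zfp575 (-1.53, SE 0.66) and Zfp87 (-1.18, SE 0.53) had the smallest p, each at an edgeR adjusted p of 0.78. Between the 2 doses, the MIR29B differences gave 0 calls (0% of genes) at weeks 2 and 4, with 10 and 2 members under 0.05 before adjustment. A call in a single arm therefore does not show that the arms differ.

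MIR29B acts through its seed, bases 2 to 8 of the mature strand, which pairs with sites in 3' UTRs. The mature mouse miR-29b-3p (RefSeq, GRCm38.p6) is shown with the seed in capitals, followed by the members' matches to the 8-mer site TGGTGCTA, in capitals with 10 and 8 flanking bases, 5′ to 3′ on the transcript strand (GENCODE M21, GRCm38).
mmu-miR-29b-3p: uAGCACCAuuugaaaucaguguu
Zfp26: gtttctgtttTGGTGCTAggaattga
Zfp322a: aaaattattcTGGTGCTAccttacct
Zfp346, first site: agttccctcgTGGTGCTAggcagctg
Zfp346, second site: ccagttgctgTGGTGCTAtccctccc
Zfp512b: cttaatgtcaTGGTGCTAagggtttc
Zfp280b: ttcccccactTGGTGCTAgggattaa

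These sites lie at base 2044 of the 3' UTR of Zfp26, 2232 of Zfp322a, 528 and 760 of Zfp346, 1394 of Zfp512b and 1172 of Zfp280b, counted from the first base of the annotated 3' UTR. An 8-mer was found in 5 of 109 members with a 3' UTR (4.59%), beside 430 of 15161 genes (2.84%), and the 7-mer TGGTGCT or the 8-mer in 20 (18.3%) beside 13.1%. A match is a description and not a measured site. At week 2 the differences between MIR29B and scrambled in the 5 genes were -0.94 (SE 0.43) for Zfp26, 0.58 (SE 0.52) for Zfp322a, 0 (SE 0.33) for Zfp346, -0.13 (SE 0.49) for Zfp512b and 0.22 (SE 0.42) for Zfp280b. Their median was 0 at week 2, 0.35 at week 0 and 0.04 at week 4, while the 89 members with a 3' UTR and no site had -0.14, -0.02 and 0.08. Zfp346 encodes a protein that binds double-stranded RNA; with its 2 sites it gave 0.38 (SE 0.35) at week 0 and -0.6 (SE 0.36) at week 4. No direction was shared by the 5 genes at week 2. All 5 were below 0 for week 2 against week 0 in both arms, with medians of -0.86 with MIR29B and -0.59 with scrambled. Of the 89 members with no site, 63 were below 0 with MIR29B (median -0.45) and 57 with scrambled (median -0.31). Dnmt3a, the target named in the title of the study, differed between arms by -0.44 (SE 0.52), -0.34 (SE 0.53) and 0.55 (SE 0.52) at weeks 0, 2 and 4.

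Genes whose level followed Zfp703 most closely over the 36 libraries were 1700017B05Rik (Spearman's rho 0.87), Dusp8 (0.84), 5031425E22Rik (0.82), Gsk3a (0.8) and Tmem259 (0.79), with 51.8% to 64.3% GC beside 60.6% for Zfp703. These libraries share weeks, depth and GC index, and the values are a description. Members followed each other weakly: the median rho over 6216 pairs of members was 0.1, and 0.25 over 703 pairs of KRAB members.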

How the data were processed

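The deposited table holds raw counts per RefSeq transcript row; reads were aligned with HISAT2 2.0.5 to GRCm38 and counted with featureCounts 1.5.0-p3, per the submitters' processing notes, and whether strand was used is not given in the sources used here. Of 25856 rows, 25650 were matched to symbols by the RefSeq table and 132 by GENCODE M21. The other 74 had no symbol and were kept under their row names, so they count among the 16812 genes. The row with the highest total stood for each gene. edgeR 4.0.16 (R 4.3.3) fitted all 12 groups with TMM scaling after filterByExpr (minimum count 10, total 15), with quasi-likelihood tests and Benjamini-Hochberg adjustment over 11953 genes; called means an adjusted p under 0.05. Each SE was derived from the fold change and its F statistic. Libraries of a group varied by a common dispersion of 0.25. GC content, fingers and KRAB boxes came from the longest GENCODE transcript linked to the RefSeq row kept for each gene. The GC index used log2(CPM + 0.5). Genes were named by rule: per comparison the 6 highest and 6 lowest called members, or the 3 smallest p where none was called; members with a known role, the 5 highest and 5 lowest levels per kb, an 8-mer site, or a total next to the threshold; and the 5 genes most like the member with the smallest p. Other names were chosen after their values were seen. The members and lists were chosen with earlier results of these data known. The GC offsets (lowess per library, span 0.3) were added after seeing the data. Alternatives were other size factors, DESeq2 1.42.0, limma 3.58.1 voom, filters, thresholds and left-out libraries; with a library left out the filter was set again (12265 to 12323 genes). The fit was tested on simulated data.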

Additional observations from a re-analysis of the deposited data

How the results depend on the processing

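Of the counts of 29, 5 and 4 members called (week 2 against 0, week 4 against 0, week 4 against 2), other size factors gave 33, 7 and 5, and the mean of all rows of a gene 30, 6 and 5. With the replicate block they were 30, 6 and 6; Zfp771 lost its call (edgeR adjusted p = 0.0527). The numbers are not shown to pair animals: deviations of libraries correlated at a median of 0.049 over 198 same-numbered pairs (78 over 0.1) and -0.024 over 396 others (93 over 0.1). With no filter on low counts they were 33, 7 and 15, and MIR29B gave 1 call at week 2 and 2 for the difference between arms. DESeq2 gave 42, 11 and 15, limma voom 35 (1 higher), 8 and 7, and fits on only the groups compared 22, 11 and 2. Without libraries over 5% ribosomal RNA they were 15, 3 and 0, the same on the 11953 genes first tested, and with GC offsets 14, 4 and 1 (4 of the 14 higher, against 4 of the 29). A threshold of 500 on the total (172 genes) gave 42, 6 and 4, and of 2000 (49 genes) 14, 5 and 2. Leaving out each library gave 22 to 38, 4 to 8 and 3 to 16, and the comparisons of arms stayed at 0. Shares of all genes called are given above for the main fit, the GC offsets and the fits without libraries rich in ribosomal RNA. The member thresholds use the main fit. For the other settings the shares are not given here, so those counts do not set members apart from other genes. Some settings have fewer samples or genes by construction, and why the counts differ between settings was not tested. Of 340 alternative values for 34 named ones, 303 were counted as kept in direction and side of the threshold. Of the rest, 34 lost a call, 3 gained one and 0 reversed. A value with the same direction but no adjusted p was counted as kept. Over 1224 values from fits without 1 library, 77 lost a call. Only the named values between weeks were calls and could lose one. Those between arms were not calls, so these totals are no rate of loss. Low counts limit the members: 25 were at 0 in at least 1 library.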
